A study of Mus musculus with 8 samples.

Results

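Neuropeptide Y (*Npy*) and its receptor genes *Npy1r*, *Npy2r*, and *Npy5r* were followed across 4 nuclei of the mouse hypothalamus, namely the arcuate nucleus (Arc), the ventromedial hypothalamus (VMH), the dorsomedial hypothalamus (DMH), and the lateral hypothalamus (LH). The members were all probes whose RefSeq accession in the array files belongs to 1 of these 4 genes, which gave 5 of 55681 probes and 4 of 20284 named genes, with 2 probes for *Npy2r* and 1 for each of the others. The nuclei were cut by laser microdissection from the brains of 2 female C57BL/6 mice (C57BL/6J in the methods) aged 3 months, and the study compared them to find genes that mark a single nucleus. Each nucleus was measured on 2 arrays, 8 in all, and no group carried a treatment, a diet, or a transgene. The labels call the arrays of a nucleus replicates 1 and 2 but do not say which mouse each came from, so each p-value below measures the spread between these arrays, which may be in part technical. The RNA was amplified as a whole transcriptome before labeling, and the 8 arrays lay on 1 slide that was read in 1 scan.

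Neuropeptide Y is a short peptide that neurons cut from a longer precursor, store in vesicles, and release to raise feeding and lower energy expenditure. In the Arc it is made by the neurons that also make agouti-related protein (*Agrp*), which are inhibited by leptin and excited by ghrelin and by fasting, and which oppose the neighboring neurons that make proopiomelanocortin (*Pomc*). Its receptors are coupled to inhibitory G proteins: the Y1 and Y5 receptors (*Npy1r* and *Npy5r*) mostly receive the peptide on target neurons and are tied to feeding, whereas the Y2 receptor (*Npy2r*) sits largely on the terminals of the releasing neurons and acts there as an autoreceptor.

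The 250 bases before the start of each gene are shown because the 4 genes shared their highest level in the same nucleus, and because *Npy1r* and *Npy5r* are neighbors in the genome. The sequences are those of RefSeq for the assembly GRCm38.p6, written 5′ to 3′ on the strand of the gene, at chr6:49822460-49822709 (plus strand) for *Npy*, chr8:66697172-66697421 (plus strand) for *Npy1r*, chr8:66688095-66688344 (minus strand) for *Npy5r*, and chr3:82548086-82548335 (minus strand) for *Npy2r*. Capitals mark the matches to the motifs that were searched.
Npy: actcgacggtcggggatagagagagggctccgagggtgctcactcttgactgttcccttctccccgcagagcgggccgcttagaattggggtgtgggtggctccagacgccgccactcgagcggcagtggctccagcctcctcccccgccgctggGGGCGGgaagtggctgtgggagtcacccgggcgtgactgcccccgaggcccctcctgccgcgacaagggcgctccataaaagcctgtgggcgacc
Npy1r: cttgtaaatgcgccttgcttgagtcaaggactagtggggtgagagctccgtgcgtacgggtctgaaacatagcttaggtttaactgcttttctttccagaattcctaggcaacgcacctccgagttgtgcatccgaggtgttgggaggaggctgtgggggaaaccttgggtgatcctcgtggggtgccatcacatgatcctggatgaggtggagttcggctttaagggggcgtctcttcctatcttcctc
Npy5r: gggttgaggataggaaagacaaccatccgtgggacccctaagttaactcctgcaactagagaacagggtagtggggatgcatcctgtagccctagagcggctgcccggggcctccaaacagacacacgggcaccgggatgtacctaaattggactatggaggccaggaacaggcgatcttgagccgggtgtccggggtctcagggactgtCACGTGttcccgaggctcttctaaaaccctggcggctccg
Npy2r: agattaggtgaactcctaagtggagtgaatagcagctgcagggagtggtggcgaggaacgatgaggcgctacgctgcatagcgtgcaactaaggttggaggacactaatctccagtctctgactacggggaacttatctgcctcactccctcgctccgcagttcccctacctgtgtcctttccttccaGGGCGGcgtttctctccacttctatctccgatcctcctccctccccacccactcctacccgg
A search of both strands for 6 motifs gave 3 matches, which did not overlap. The GC box GGGCGG was found in *Npy*, from 95 to 90 bases before the start, and in *Npy2r*, from 62 to 57 bases before it, and 32.7% of 32851 promoter windows of the same length held it. The E-box CACGTG was found in *Npy5r*, from 40 to 35 bases before the start, and 6.02% of all windows held it. None of the 4 windows held the cAMP response element core TGACG, the STAT site TTCNNNGAA, the homeodomain site TAATTA, or the TATA box TATAAA, which stood in 17.8%, 7.02%, 4.84%, and 12.4% of all windows. The *Npy1r* window held no match to any of them. The annotation lists *Npy5r* and *Npy1r* next to each other on opposite strands of chromosome 8, with 0 genes between them and 9.33 kb between their starts, so that they are read away from each other. A match is a description of these letters and not of binding. *Npy* lies on chromosome 6 and *Npy2r* on chromosome 3, so neither is a neighbor of that pair.

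Values below are scaled signals, which are the deposited intensities divided by the 75th percentile of each array and brought back to a common size. They compare 1 probe across arrays and do not rank different probes. A probe is called measured on an array where the array software marked it as well above background, and the lowest scaled signal so marked lay between 79.3 and 132 on the 8 arrays. The probes of *Npy*, of *Npy1r*, and A_55_P1977676 of *Npy2r* were measured on all 8 arrays. The other 2, *Npy5r* and the *Npy2r* probe A_51_P311919, were measured on both arrays in the Arc alone and entered the tests through that nucleus, so a high Arc signal was a condition of their being tested. Differences were tested with limma on the log2 scale over 28896 probes, with Benjamini-Hochberg adjustment over all of them and a threshold of 0.05. The arrays hold tissue pieces, so fewer cells of a type and less RNA per cell cannot be told apart.

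Arrays of 1 nucleus correlated at 0.982 in the Arc and 0.978, 0.972, and 0.938 in the VMH, DMH, and LH. The array LH2 correlated more closely with DMH2 (0.955) than with LH1. LH1 held 364 spots marked as outliers, against 126 to 161 on the other arrays. The markers of each nucleus were highest in their own nucleus for all 14 probes of the lists used. The study had reported *Npvf*, *Grp*, *Prdm13*, *Agrp*, *Kiss1*, *Nr5a1*, and *Pvalb* as enriched in those nuclei from these same arrays. *Prdm13*, *Grp*, *Npvf*, *Fezf1*, and the *Pvalb* probe A_55_P2059040 entered the tests through their own nucleus alone. For these genes the outcome followed from the choice and is no check of the cuts. The LH peptide gene *Hcrt* was also high in the DMH, at 55940 and 51283 against 105971 and 116750 in the LH. *Pmch*, the other LH peptide gene of the list, was closer still, at 13942 in the DMH and 17328 in the LH as means (limma adjusted p = 0.561). It read 3539 in the VMH and 84.3 in the Arc, where it was not well above background. The 3 DMH genes *Prdm13*, *Grp*, and *Npvf* were each measured on LH1 (140, 376, and 406) and not on LH2 (27.8, 32.8, and 29.0). Values that touch the members are given beside them.

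**Figure D1:**
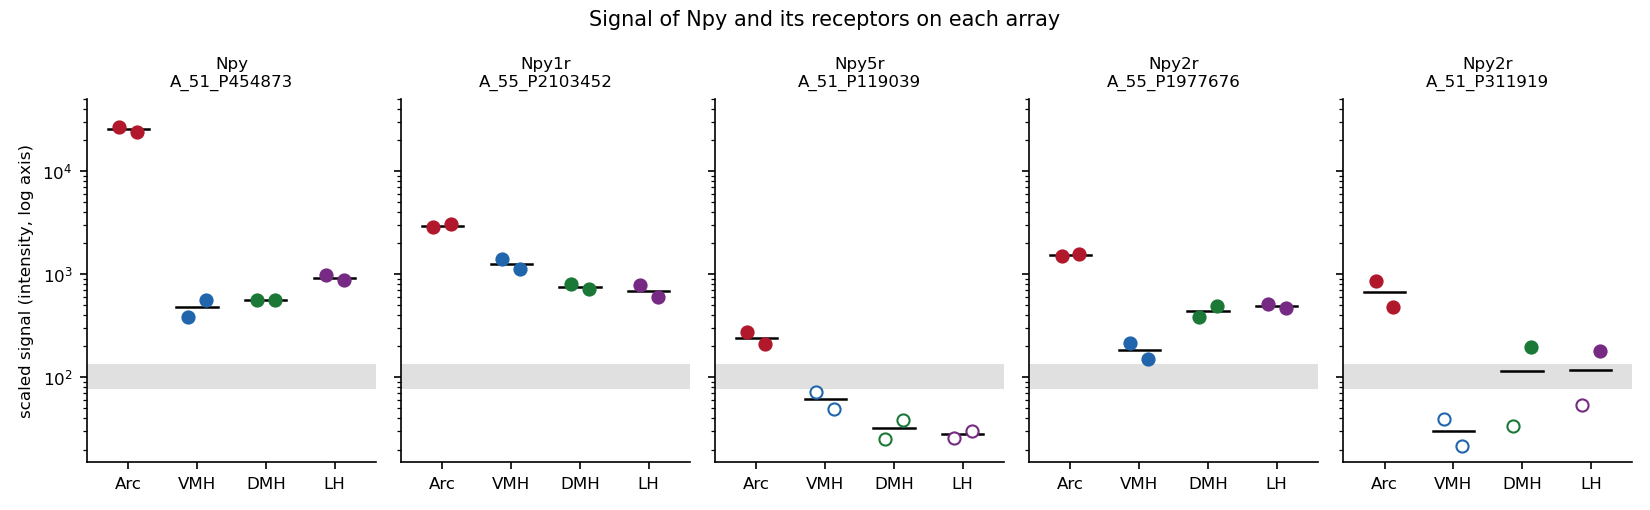
Scaled signal (intensity, log axis) of the 5 member probes on each of the 8 arrays, by nucleus. Points are arrays, filled where the probe was well above background and open where it was not, black lines are means of the 2 arrays, and the gray band spans the lowest signals marked as measured, 79.3 to 132; in every panel both Arc points lie above the other 6.

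*Npy*, the ligand, was high in the Arc and low but measured in every other nucleus. The probe A_51_P454873 (RefSeq NM_023456) read 26974 and 23813 on the Arc arrays, 387 and 567 in the VMH, 559 and 561 in the DMH, and 973 and 873 in the LH. The Arc arrays agreed within a factor of 1.13 and stood far above the other 6, and both LH arrays stood above all 4 arrays of the VMH and DMH. Mean signals were 25394 ± 2235 (SD, n = 2) in the Arc and 477 ± 127, 560 ± 1.32, and 923 ± 71.1 in the VMH, DMH, and LH. The other nuclei thus held 1.88%, 2.20%, and 3.64% of the Arc signal, in the order VMH, DMH, and LH.

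The Arc exceeded the VMH by 5.76 on the log2 scale (SE 0.24, 53.3-fold as a ratio of means, limma adjusted p = 0.000258). It exceeded the DMH by 5.50 (45.4-fold, adjusted p = 0.000286) and the LH, the next highest nucleus, by 4.78 (27.5-fold, adjusted p = 0.000351). Over all probes, 2.4% were called higher in the Arc than in the VMH, 0.533% than in the DMH, and 3.33% than in the LH. The study called a gene enriched at a ratio of at least 10, which *Npy* passed. The ratio of the Arc to the next highest nucleus was 2.35 for *Npy1r* and 3.13 for the *Npy2r* probe A_55_P1977676, both measured on all arrays. The other *Npy2r* probe stayed under 10 even with its unmeasured arrays taken as 0, at 6.81 or less against the DMH. *Npy5r* was measured in no other nucleus, so whether it reaches a ratio of 10 was not determined.

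The order LH, DMH, and VMH among the low nuclei did not separate at the threshold. The LH lay 0.98 (log2) above the VMH with an adjusted p of 0.0683, and 3 of 11 processing alternatives brought that p under the threshold, with a range of 0.0380 to 0.330. The LH lay 0.72 above the DMH (adjusted p = 0.240), and the VMH minus the DMH was -0.26 with a 95% interval of -0.82 to 0.31 (adjusted p = 0.759). The share of all probes called in either direction was 5.28% between the VMH and the LH, 0.924% between the DMH and the LH, and 2.04% between the VMH and the DMH.

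Other genes that mark Arc neurons also gave a signal outside the Arc. *Agrp*, which the same neurons make, held 0.803%, 1.06%, and 0.976% of its Arc signal in the VMH, DMH, and LH. *Kiss1*, the kisspeptin gene of other Arc neurons, held 1.21%, 1.19%, and 1.46% in the same order (probe A_55_P2069765), and the transcription factor gene *Tbx3* held 4.39%, 3.57%, and 4.66%. *Pomc* held 9.48%, 3.59%, and 2.76%. A dimmer *Kiss1* probe, A_55_P2069768, read 381 in the Arc as a mean and held 49.0% in the VMH and 36.0% in the DMH, and it was measured on 1 of the LH arrays only. The shares of these 5 probes did not run in one order over the nuclei, and some were above and some below those of *Npy*. The study checked its cuts by quantitative RT-PCR for *Agrp*, *Nr5a1*, *Hcrt*, and *Crh* and reported that neighboring nuclei had not contaminated them. Cortical and other interneurons that carry *Npy* are GABAergic, and of their list the summed signal of *Sst*, *Nos1*, *Gad1*, and *Gad2* was 29556 to 34826 in the LH, 25233 to 27490 in the DMH, 9610 to 9907 in the VMH, and 48237 to 51049 in the Arc. These sums add different probes, and most of the Arc sum was *Sst*, at 33399 in the Arc against 7002 to 8934 as means elsewhere. *Gad1*, *Gad2*, and *Nos1* had their highest means in the LH, at 9577, 11954, and 1726 against 7343, 7225, and 1677 in the Arc. *Sst* overlapped between the LH (5052 and 12817) and the DMH (5686 and 9021). The part of such cells in the *Npy* signal was not tested.

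*Npy1r*, the Y1 receptor, was highest in the Arc and measured on every array. The probe A_55_P2103452 (RefSeq NM_010934) read 2844 and 3064 in the Arc, 1404 and 1113 in the VMH, 797 and 721 in the DMH, and 778 and 608 in the LH. No array of the Arc overlapped another nucleus, both VMH arrays stood above all 4 of the DMH and LH, and the DMH and LH overlapped. Mean signals were 2954 ± 156 (SD, n = 2) in the Arc and 1259 ± 206, 759 ± 53.8, and 693 ± 120 in the VMH, DMH, and LH.

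The Arc exceeded the VMH by 1.24 (log2, SE 0.23, 2.35-fold, limma adjusted p = 0.0252), the DMH by 1.96 (3.89-fold, adjusted p = 0.0121), and the LH by 2.10 (4.26-fold, adjusted p = 0.00344). The difference from the LH kept its call under each alternative and without any 1 array. The difference from the VMH lost it without scaling (0.97, adjusted p = 0.157), without the filter on dim probes (adjusted p = 0.0559), and without either array of the Arc, VMH, or DMH (adjusted p from 0.0603 to 0.149). The difference from the DMH lost it without scaling (1.48, adjusted p = 0.0636) and without either array of the Arc or the DMH (0.0727 to 0.0972). The VMH was 0.72 above the DMH (adjusted p = 0.235) and 0.86 above the LH (adjusted p = 0.0826), and the DMH minus the LH was 0.14 with a 95% interval of -0.39 to 0.68, so the order of these 3 nuclei was not separated by the test.

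*Npy5r*, the Y5 receptor, gave a signal in the Arc alone. The probe A_51_P119039 (RefSeq NM_016708) read 274 and 210 on the Arc arrays, both well above background. The other 6 arrays were not well above background, at 72.6 and 49.8 in the VMH, 25.3 and 38.9 in the DMH, and 26.0 and 30.2 in the LH. These 6 values lie under the lowest measured signal of their arrays and fix no level, so the Arc was at least 2.31-fold above the VMH, at least 2.56-fold above the DMH, and at least 2.34-fold above the LH. The limma differences, which use the dim values as they stand, were 1.99, 2.93, and 3.10 (log2), with adjusted p-values of 0.0140, 0.00895, and 0.00268. Setting each dim signal to the floor of its array gave adjusted p-values of 0.0569 against the VMH and 0.0867 against the DMH, and the p against the VMH was 0.0509 with the normexp background correction and 0.0592 with trended and robust moderation. They were also over the threshold against the VMH without either array of the Arc or the VMH (0.0506 to 0.109) and against the DMH without Arc1 (0.0698) or DMH1 (0.0554), whereas the difference from the LH kept its call throughout. The sizes moved as well, since the normexp correction with its offset of 50 gave log2 differences of 0.74 from the VMH, 0.99 from the DMH, and 0.73 from the LH (adjusted p = 0.0443), under the bounds above, and dim signals at the floor gave 1.21, 1.36, and 1.23 (adjusted p = 0.0414 for the LH).

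*Npy2r*, the Y2 receptor, was highest in the Arc. The probe A_55_P1977676 (RefSeq NM_008731) read 1505 and 1555 in the Arc, 216 and 149 in the VMH, 385 and 496 in the DMH, and 511 and 467 in the LH. All 8 arrays measured it, the VMH arrays were below all others, and the DMH and LH overlapped. Mean signals were 1530 ± 35.4 (SD, n = 2) in the Arc and 183 ± 47.0, 440 ± 78.3, and 489 ± 30.6 in the VMH, DMH, and LH.

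The Arc exceeded the VMH by 3.09 (log2, SE 0.25, 8.38-fold, limma adjusted p = 0.00145), the DMH by 1.81 (3.48-fold, adjusted p = 0.0218), and the LH by 1.65 (3.13-fold, adjusted p = 0.0106). The difference from the VMH kept its call throughout but was 2.17 with normexp (adjusted p = 0.000503), whereas that from the DMH lost it without scaling (1.33, adjusted p = 0.0786) and without either array of the Arc or the DMH (0.0755 to 0.148), and that from the LH without either Arc array (0.0720 and 0.0765). The LH exceeded the VMH by 1.44 (2.68-fold, adjusted p = 0.0242), where 3.04% of all probes were called higher in the LH than in the VMH. This was the 1 call among the 15 member comparisons that leave out the Arc, and it was lost without scaling (0.0612), in a fit of the VMH and LH arrays only (0.121), and without Arc1, Arc2, DMH2, VMH1, or VMH2 (0.0512 to 0.114). The DMH was 1.28 above the VMH with an adjusted p of 0.0602, which 2 of 11 alternatives brought under the threshold (0.0425 with dim signals at the floor and 0.0310 with a filter on all 8 arrays), and the DMH minus the LH was -0.16 with a 95% interval of -0.75 to 0.43.

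The other *Npy2r* probe, A_51_P311919, was dimmer and more scattered. It read 857 and 483 in the Arc, was not measured on either VMH array (39.5 and 21.5), and was measured on DMH2 (197) and LH2 (180) but not on DMH1 (33.8) or LH1 (54.1). The arrays of the DMH, and those of the LH, thus fell on different sides of the background. The Arc was at least 6.19-fold above the VMH (limma difference 4.46, SE 0.90, adjusted p = 0.0350). With normexp the difference was 2.01 (adjusted p = 0.00685), and the call was lost without the filter on dim probes (0.0535) and without either array of the Arc or the VMH (0.127 to 0.212). Against the DMH the difference was 2.98 (adjusted p = 0.251) and against the LH 2.70 (adjusted p = 0.111, and 0.0207 with dim signals at the floor or 0.0422 with normexp). Without 1 array these differences ran from 1.71 to 4.25 and from 1.84 to 3.57. The other alternatives lowered them to as little as 1.47 and 1.24. Both probes were highest on the Arc arrays. Their log2 signals correlated at 0.910 over the 8 arrays, 4 of which hold background values of the dimmer probe.

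**Figure D2:**
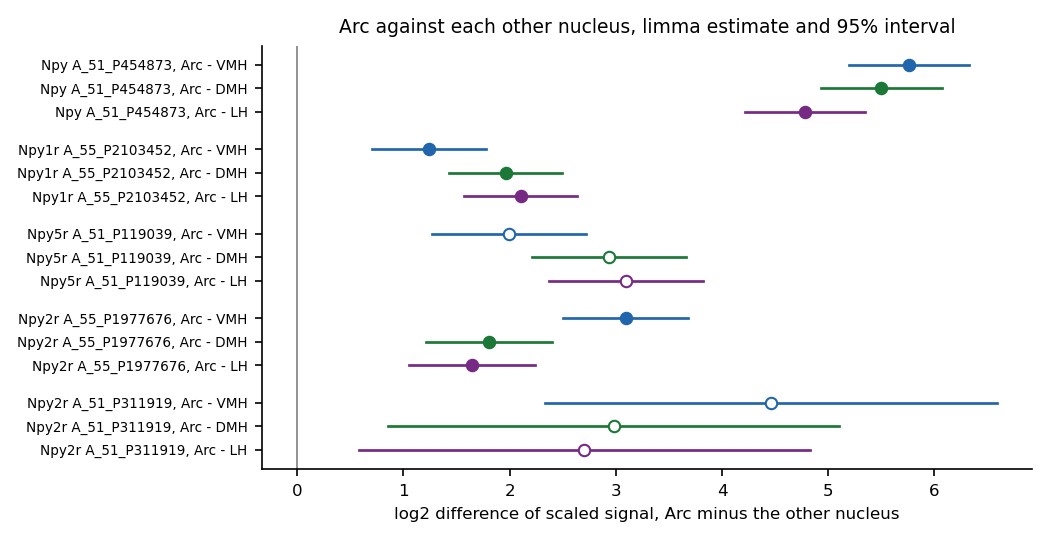
Difference of log2 scaled signal between the Arc and each other nucleus for the 5 member probes, with its 95% interval from limma (2 arrays per nucleus). Open points mark comparisons in which the other nucleus was measured on fewer than 2 arrays, so that the value is no level difference; *Npy* lies at 4.78 to 5.76 and the fully measured receptor differences at 1.24 to 3.09.

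Over the 5 probes, both Arc arrays stood above the other 6 for each probe, against 8.61% of all probes tested. For 4 probes the Arc exceeded all 3 other nuclei at the threshold, against 0.339% of all probes, and 3 of these 4 were the probes measured on all arrays. Of the 30 comparisons of 2 nuclei, 14 were called, 13 of them with the Arc, against 4.13% of these comparisons over all probes tested, and without Arc1 or Arc2 the count was 6 or 7. In the test among the 4 nuclei together, 4 of the 5 probes were called, against 8.34% of all probes, with limma adjusted p-values of 0.000307 for *Npy*, 0.00694 for *Npy1r*, 0.00524 for *Npy5r*, and 0.00403 for the brighter *Npy2r* probe. The dimmer *Npy2r* probe had 0.0811. The 2 probes that entered through the Arc alone are part of these counts and add no support to them.

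The ratio of the *Npy1r* to the *Npy2r* signal was higher on the VMH arrays than on the others. The log2 signal of *Npy1r* minus that of *Npy2r* (A_55_P1977676), a difference within an array that is the same with and without scaling, was 2.70 and 2.90 in the VMH. It was 0.92 and 0.98 in the Arc, 1.05 and 0.54 in the DMH, and 0.61 and 0.38 in the LH. Both VMH arrays thus lay above the other 6, with a mean of 2.80 against 0.75, so the ratio of the Y1 to the Y2 signal was 4.15-fold higher in the VMH than in the mean of the other arrays. It depended on the background correction, because normexp gave 1.47 and 1.85 in the VMH against 0.17 to 0.69 on the other arrays, a ratio of 2.29-fold. This pair was chosen after its values were seen and was not tested. The difference is one of 2 probes and does not say which receptor RNA is the more abundant.

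Over the 8 arrays, which share nuclei in pairs, *Npy1r* and *Npy5r* followed each other at a Pearson correlation of 0.968, the highest among the members. *Npy* correlated at 0.892 with *Npy2r* (A_55_P1977676), at 0.864 with *Npy5r*, and at 0.844 with *Npy1r*, and *Npy1r* with *Npy2r* at 0.589. All values of *Npy5r* outside the Arc in these correlations are at background.

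The genes nearest to each member in pattern were found among 17158 or 17159 named probes by the same correlation, as a description. For *Npy* they were *Crabp1*, a retinoic acid binding protein (0.991), *Kiss1* (0.987), *Agrp* (0.986), the ribosomal protein gene *Rpl13a* (0.982), and the nuclear receptor gene *Nr5a2* (0.982). For *Npy1r* they were *Pomc* (0.981), *Socs3*, an inhibitor of cytokine and leptin signaling (0.977), *Fam183b* (0.971), the transcriptional coactivator gene *Cited1* (0.970), and *Npy5r* (0.968). *Npy5r* was also closest to *Pomc* (0.981), followed by the protocadherin gene *Pcdh7* (0.975), the kinase gene *Pskh1* (0.975), *Npy1r* (0.968), and *Gadd45g* (0.967). For *Npy2r* they were the neuronal transcription factor gene *Nhlh2* (0.991), the keratin gene *Krt2* (0.990), *Tmtc4* (0.984), the kinase gene *Rps6ka6* (0.984), and *Stat5a*, a transcription factor downstream of cytokine receptors (0.980). *Nr5a2* and *Npy5r* itself were measured on 2 of the 8 arrays, *Socs3* on 3, *Nhlh2* on 6, and *Stat5a* on 7, so part of their correlations, and most for *Nr5a2*, *Npy5r*, and *Socs3*, rests on background values. The order of the genes nearest to *Npy5r* likewise rests in part on the 6 arrays where it was not well above background. A correlation gives no size of difference. As means, *Rpl13a* read 9333 in the Arc against 5304 to 6207 elsewhere, and *Pskh1* 1314 against 779 to 894.

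**Figure D3:**
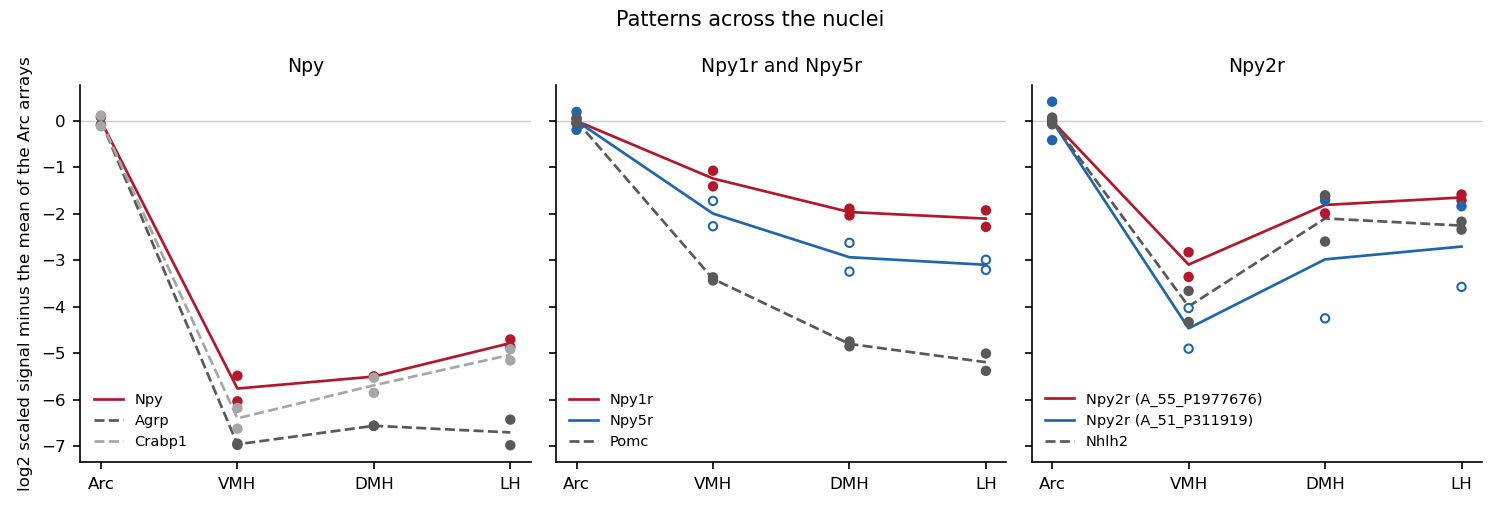
Log2 scaled signal of each member minus the mean of its 2 Arc arrays, by nucleus, with the genes closest in pattern dashed. Points are arrays (open where a member probe was not well above background) and lines join nucleus means; *Npy1r* lies 1.24 to 2.10 below its Arc level in the other nuclei, *Npy5r* is at background outside the Arc, and the fully measured *Npy2r* probe has its lowest arrays in the VMH.

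*Pomc*, the precursor of the melanocortins, was closest in pattern to *Npy1r*, at 41756 ± 1913 (SD, n = 2) in the Arc and 3957 ± 130, 1500 ± 75.5, and 1151 ± 209 in the VMH, DMH, and LH. Its VMH signal was called above the DMH (1.40 on the log2 scale, limma adjusted p = 0.0221) and above the LH (1.79, adjusted p = 0.00692).

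The wider pathway was followed in 31 genes with 42 probes, of which 32 probes of 24 genes were measured on both arrays of at least 1 nucleus. Of the 32 probes, 12 (37.5%) of 11 genes were called among the 4 nuclei, against 8.34% of all probes. Against the VMH, 8 probes were called higher in the Arc and 2 lower, against the DMH 6 higher and 0 lower (2 lower at an unadjusted p under 0.05), and against the LH 7 higher and 2 lower. Over all probes, those called lower in the Arc were 3.52% against the VMH, 0.727% against the DMH, and 6.02% against the LH, each above the share called higher. The median difference of the 32 probes was 0.18 (log2) against the VMH, 0.05 against the DMH, and 0.27 against the LH, beside 0.01, 0.02, and 0.05 over all probes tested. The list was drawn up with Arc genes in it and with earlier results known, so these counts describe it and do not test it.

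The other ligands and receptors of the family entered no test. Peptide YY (*Pyy*) and the Y6 receptor gene *Npy6r* were well above background on no array, pancreatic polypeptide (*Ppy*) on 1 array each of the VMH and DMH (205 and 174), and the Y4 receptor gene *Npy4r* on Arc2 alone (152). No probe of the genes *Dpp4*, *Mme*, and *Anpep*, whose products are peptidases on the cell surface that can cut the peptide, was measured on both arrays of a nucleus. Being dim on these arrays bounds their signal and does not show that the RNA is missing.

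Genes that mature the peptide were measured everywhere, and 2 of their 9 probes (22.2%, against 8.34% of all probes) were called among the nuclei. The prohormone convertase gene *Pcsk1* was highest in the LH, at 2839 and 3048, against 1543 and 1830 in the Arc, 1004 and 990 in the VMH, and 1308 and 1222 in the DMH. The LH exceeded the Arc by 0.81 (log2, limma adjusted p = 0.0475), the VMH by 1.56 (0.00830), and the DMH by 1.22 (0.0470). The convertase gene *Pcsk2* was lowest in the Arc on the probe A_51_P229613, at 10197 ± 2228 (SD, n = 2) against 23474 ± 1266 in the VMH (adjusted p = 0.0315) and 22871 ± 1851 in the LH (0.0269), and its other probe was not called (0.481). No call among the nuclei was made for *Cpe*, *Pam*, *Scg5*, or *Pcsk1n*, which trim, amidate, or chaperone peptides and their enzymes.

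Of the inhibitory G proteins and the potassium channels that they open, 1 of 11 probes (9.09%) was called, near the 8.34% of all probes. It was a probe of the channel gene *Kcnj3* (A_52_P560006), at 222 ± 36.0 (SD, n = 2) in the VMH and 107 and 99.0 in the DMH. The VMH was 1.10 (log2) above the DMH, which was not called (limma adjusted p = 0.0583). The probe was not measured in the Arc or the LH. The VMH was thus at least 1.95-fold above the Arc (limma adjusted p = 0.0161) and at least 2.05-fold above the LH (adjusted p = 0.0199). The brighter *Kcnj3* probe was not called (0.226).

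Among 7 genes of the Arc neurons that make *Npy*, 7 of the 9 probes tested were called among the nuclei (8.34% over all probes), 2 of which, *Ghsr* and *Corin*, entered the test through the Arc alone. *Agrp* read 50101 ± 4129 (SD, n = 2) in the Arc and 402 to 530 as means elsewhere, and the Arc exceeded the VMH by 6.96, the DMH by 6.56, and the LH by 6.70 on the log2 scale (limma adjusted p of 0.000286 or less). *Ghsr*, the ghrelin receptor, read 1122 and 1283 in the Arc and was not measured in any other nucleus, at least 11.5-fold lower (limma adjusted p of 0.00278 or less). *Corin*, a protease gene expressed by Agrp neurons, read 153 and 169 in the Arc and was measured nowhere else, at least 1.55-fold lower (adjusted p of 0.00554 or less).

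The transcription factor genes of this list and the GABA transporter did not follow *Npy* in full. *Otp* read 1896 and 1845 in the Arc, 490 and 419 in the DMH, 591 and 513 in the LH, and 76.9 and 122 in the VMH, so that its lowest arrays, like those of *Npy2r*, were those of the VMH. *Bsx* was highest in the DMH (266 and 160), the 1 nucleus that measured it on both arrays, and read 106 and 106 in the Arc, not well above background. *Slc32a1*, the vesicular GABA transporter, was low in the VMH (2695 ± 864, SD, n = 2) and at 16932, 18407, and 22661 in the Arc, DMH, and LH on the probe A_52_P138926, and its other probe was also lowest in the VMH (302 ± 19.3). The leptin receptor gene *Lepr* was not called on either probe tested, and its probe A_55_P2177910 read 1267 on DMH1 and 181 on DMH2. The melanocortin 3 receptor gene *Mc3r* read 2658 ± 350 in the Arc and 2460 ± 153 in the VMH (difference 0.11, limma adjusted p = 0.867), and it was called higher in the Arc than in the DMH (2.10, adjusted p = 0.00912) and the LH (1.65, adjusted p = 0.00701). *Mc4r* was not called.

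**Figure D4:**
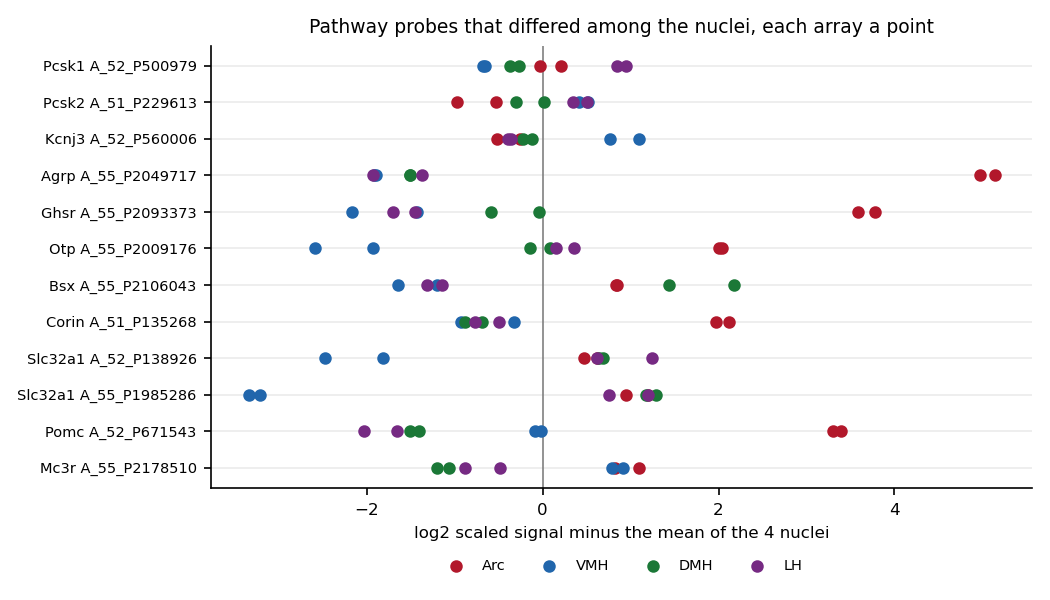
Log2 scaled signal of the 12 pathway probes called among the nuclei, on each of the 8 arrays, minus the mean of the 4 nuclei for that probe. Points are arrays colored by nucleus. The Arc points of *Agrp*, *Ghsr*, *Otp*, *Corin*, and *Pomc* stand to the right of all others. The VMH points of *Slc32a1* and *Otp* stand to the left, and *Bsx* is highest in the DMH. All points are filled, also those not well above background: *Ghsr* and *Corin* outside the Arc, *Bsx* outside the DMH, *Kcnj3* in the Arc and LH, and *Otp* on 1 VMH array.

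Other cell types also differed among the cuts. Markers of tanycytes, the glia that line the third ventricle beside the Arc, were highest in the Arc for all 4 probes tested of 6. Their list summed to 5946 to 6708 in the Arc against 966 to 1390 elsewhere. Of the 4, *Rax* and the *Col23a1* probe A_55_P2086978 entered the test through the Arc alone, so a high Arc signal was a condition for them. The ependymal marker *Foxj1* was measured on both arrays of no nucleus. Oligodendrocyte markers summed to 113812 to 119528 in the LH against 19056 to 47478 elsewhere, with 8 of 10 probes highest in the LH. Markers of neurons in general, over the 6 probes with a value on every array, summed to 123457 to 124557 in the Arc against 132703 to 175776 elsewhere. Of the 7 neuron probes tested, 3 were called among the nuclei (42.9%), all of the neuronal splicing factor *Rbfox3*, and on each both Arc arrays lay below the other 6 (1145 and 1565 against 1856 to 3875 on A_51_P313651, 2613 and 3725 against 5122 to 11776 on A_55_P1993777, and 674 and 1068 against 1223 to 3167 on A_55_P2053372). Of the astrocyte markers, 2 of the 7 probes tested were called among the nuclei, both of *Gfap*, and both were highest in the Arc. They read 1367 and 1666 against 278 to 849 elsewhere on A_52_P52303, and 3735 and 6337 against 1228 to 3109 on A_55_P2157250. *Slc1a3* and *Aldh1l1* went the other way, with both Arc arrays below the other 6, and neither was called among the nuclei. Their means were 4489 in the Arc against 6458 to 7620 elsewhere, and 3825 against 6372 to 9609. The summed list read 17212 to 23558 in the Arc and 18088 to 28159 elsewhere. Microglial markers summed to 100414 to 103183 in the Arc and 84411 to 123428 elsewhere, and endothelial markers to 2769 to 2785 and 2814 to 6938. Most of the microglial sum was the *Csf1r* probe A_55_P2025073, at 86182 in the Arc and 65386 in the LH as means. Of the 6 microglial probes tested, 4 were highest in the LH, and none was called among the nuclei. The part of these cell types in the members' values was not tested.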

How the data were processed

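The authors read the spots with Agilent Feature Extraction (version 11.5.1.1 per the labels, 10.7.3.1 per the file headers). Their processed signal was used, a linear intensity that was deposited with the background subtracted but without scaling between arrays. The methods name Cy5, which the red channel of the files fits, and the labels Cy3. The deposited marks for outlier spots and for signals well above background are 0 or 1. The number of arrays limits the precision.

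Outlier spots were left out, spots of a probe averaged, and each array divided by its 75th percentile. After log2, limma 3.58.1 in R 4.3.3 fitted a mean per nucleus to 28896 probes, those marked well above background by both arrays of a nucleus (4 residual and 3.02 prior degrees of freedom). The fit was tested on simulated data. A bound ("at least") sets the mean of the bright nucleus against the lowest measured signal of each dim array, or the probe's own signal where that is higher, averaged as log2 values. RefSeq accessions named 26762 of 28390 probes (94.3%) through GRCm38.p6. The genes named are the members, list genes called among the nuclei, nucleus markers, and the 5 probes closest in pattern to the brightest probe of each member gene, besides list genes that a count called for. Members and lists were chosen with earlier results of these data known. The paper applied a ratio of at least 10 and states no test for the arrays. Alternatives were no scaling, quantile normalization, normexp with an offset of 50, the series table, all outlier spots kept, dim signals set to the floor, no filter or a filter on all arrays, trended and robust moderation, a fit of the nuclei compared, the replicate number as a block, and each array left out.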

Additional observations from a re-analysis of the deposited data

How the results depend on the processing

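The Arc excess of *Npy* over the LH was 4.45 to 4.79 (log2) under the alternatives and 4.69 to 4.87 when an array was left out, and it kept its call in each. The 14 called member comparisons became 10 without scaling and 15 with normexp, and 6 to 14 when 1 array was left out, with 6 without Arc1 and 7 without Arc2. The member probes called among the nuclei numbered 3 to 5 in either case, and the pathway probes 8 to 13 and 9 to 14. Without scaling, the median of all probes lay 0.46 lower in the Arc than in the DMH and 0.26 lower than in the VMH, against 0.02 and 0.01 higher with it. Over all probes, 2410 were called among the nuclei, and leaving out 1 array gave 897 to 3648. In 3 uncalled comparisons the sign changed, and the cause was not tested. When 1 array was left out, *Npy* in the VMH minus the DMH ran from -0.53 to 0.018 (without VMH1), *Npy1r* in the DMH minus the LH from -0.037 (without LH2) to 0.32, and *Npy2r* (A_55_P1977676) in the DMH minus the LH from -0.34 to 0.021 (without DMH1), the last being 0.16 without scaling. Of the 450 single comparisons recomputed, 397 kept direction and call, 42 lost the call, and 7 gained it.

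Replicate numbers coincide with the row of the slide, and the deviations of replicate 1 correlated between nuclei at -0.0256 to 0.258, so the number was not taken as a pairing. With it as a replicate block, 14 member comparisons, 4 member probes, and 11 pathway probes were called, and *Npy* in the Arc minus the LH was 4.78 (adjusted p = 0.00145). Dim signals limit the results of *Npy5r* and of the *Npy2r* probe A_51_P311919.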
